A study of Mus musculus with 2 samples.

Results

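The genes described here encode molecular chaperones and the cytosolic chaperonin: J-domain proteins (Dnaja, Dnajb and Dnajc), Hsp70-type ATPases (Hspa and the larger Hsph1), small heat shock proteins (Hspb), Hsp90 proteins, the mitochondrial chaperonin pair Hspd1 and Hspe1, and the subunits of the cytosolic chaperonin CCT. They were taken by symbol from the GENCODE M21 annotation of the mouse genome (mm10), among protein-coding genes only, with Dnajc19 and Hspa9 left out by the rule. The rule gave 78 of 21938 protein-coding genes. Each was asked whether a GABPα binding interval, called a peak below, lay within 1000 bp of any of its annotated transcript starts.

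GABPα is the DNA-binding subunit of GABP, an Ets family transcription factor that recognizes a GGAA core in DNA. The data were 1 chromatin immunoprecipitation (ChIP-seq) library with an antibody against GABPα and 1 library of input DNA, both from CD4 T cells of wild-type C57BL/6 mice, purified with magnetic beads. The deposited result was a list of 6782 peaks with positions only, so the read depth behind each peak was unknown and peak height could not be compared. There were no replicates, so no test between groups was possible, and the labelled cell type could not be checked against marker genes from a list of intervals. A gene with no peak is a gene with no listed interval near its starts, which leaves weaker binding below the cutoff of the list unmeasured.

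Chaperones hold unfolded proteins and help them reach their native form. Hsp70 proteins such as Hspa8 bind and release short stretches of client chain at the cost of ATP, J-domain proteins bring clients to them and start the hydrolysis, and exchange factors such as Hspa4 and Hsph1 reset the cycle. Chaperonins enclose a whole client in a ring: CCT folds actin and tubulin in the cytosol, while Hspd1 (Hsp60) with its lid Hspe1 (Hsp10) works in the mitochondrial matrix. When proteins unfold in excess, heat shock factors raise the expression of many of these genes through heat shock elements, which are inverted repeats of GAA.

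The sequences under the peaks of the CCT subunits show what GABP could read at these genes, and they are printed 5′ to 3′ on the strand that carries the motif, with 10 bases to either side. Capitals mark CCGGAAG, the 7-letter form of the GABP motif, or CGGAAG where a peak held only the 6-letter form. All sequences were read from the RefSeq copy of GRCm38.p6, which has the mm10 coordinates. In the order below they lie at chr10:117063854-117063880 (plus strand), chr11:82764327-82764352 (plus), chr6:85451965-85451990 (plus), chr16:87495890-87495916 (minus) and chr17:12916315-12916341 (minus).
Cct2: gcgggctgggCCGGAAGcgtagcggct
Cct6b: tatcacgcctCGGAAGctagactcgc
Cct7: catagagtggCGGAAGtggtccggcc
Cct8: ggcggggcgaCCGGAAGtagggggacg
Tcp1: actgaaaacgCCGGAAGtagggggctg

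The motifs of Cct8 and Tcp1 were the same over 14 letters, and that run occurred in 2 of the 3459 peaks near protein-coding starts, those at Cct8 and at Tcp1. This likeness was noticed after the sequences had been printed and is a description only.

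For comparison, the following motifs lie under peaks of mitochondrial chaperones and under the widest peak of each other family. None is printed for Dnaja3 and Hsp90b1, the peaks of which held no CGGAAG. Hspd1 and Hspe1 share a peak and are shown once. The places are chr1:55088061-55088087 (plus), chr4:151933566-151933592 (minus), chr8:85555277-85555302 (plus), chr8:83608209-83608234 (plus), chr2:18392816-18392842 (minus), chr11:53300747-53300773 (minus) and chr5:149636328-149636353 (minus).
Hspd1 and Hspe1: ctagaaccttCCGGAAGgccccgcgcg
Dnajc11: gcggccgaggCCGGAAGctgggaggtg
Dnaja2: ggcggcggagCGGAAGgagcgcgacc
Dnajb1: tcgggaggggCGGAAGgttctggagg
Dnajc1: cgtgatgtcaCCGGAAGcgaggcctgg
Hspa4: aaagtcactgCCGGAAGtccctccgcg
Hsph1: aagaaggaagCGGAAGtggcacgtgg

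To determine how common GABPα peaks were at chaperone genes, the 78 genes were set beside the whole annotation. Of the 78 genes, 32 had a peak inside the 1000-bp distance, or 41.0% (Wilson 95% interval 30.8 to 52.1%), against 3880 of 21938 protein-coding genes, or 17.7%. The intervals given here cover counting error over genes only, and neighbouring genes that share a peak are not independent. The 32 genes had 32 distinct peaks at 31 loci, because Hspd1 and Hspe1 share a peak and Dnajc7 has 2. The share of chaperone genes stayed above that of all genes when the peak had to cover a transcript start (25 of 78, 32.1%, against 13.9%) and when only the 5′ end of each gene counted (29 of 78, 37.2%, against 16.4%).

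The families differed in how many of their genes had a peak. The mitochondrial pair and Hsph1 each had one, CCT had 5 of 8, Dnaja 3 of 4, Dnajc 11 of 27, Dnajb 5 of 13, Hspa 4 of 12 and Hsp90 1 of 3. None of the 8 genes with an Hspb symbol had a peak, a count for which the 95% Wilson interval reaches 32.4%. They include Hspb11, which was placed with the cilium. With so few genes per family most intervals overlap: that of CCT ran from 30.6 to 86.3% and that of Hspa from 13.8 to 60.9%.

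**Figure D1:**
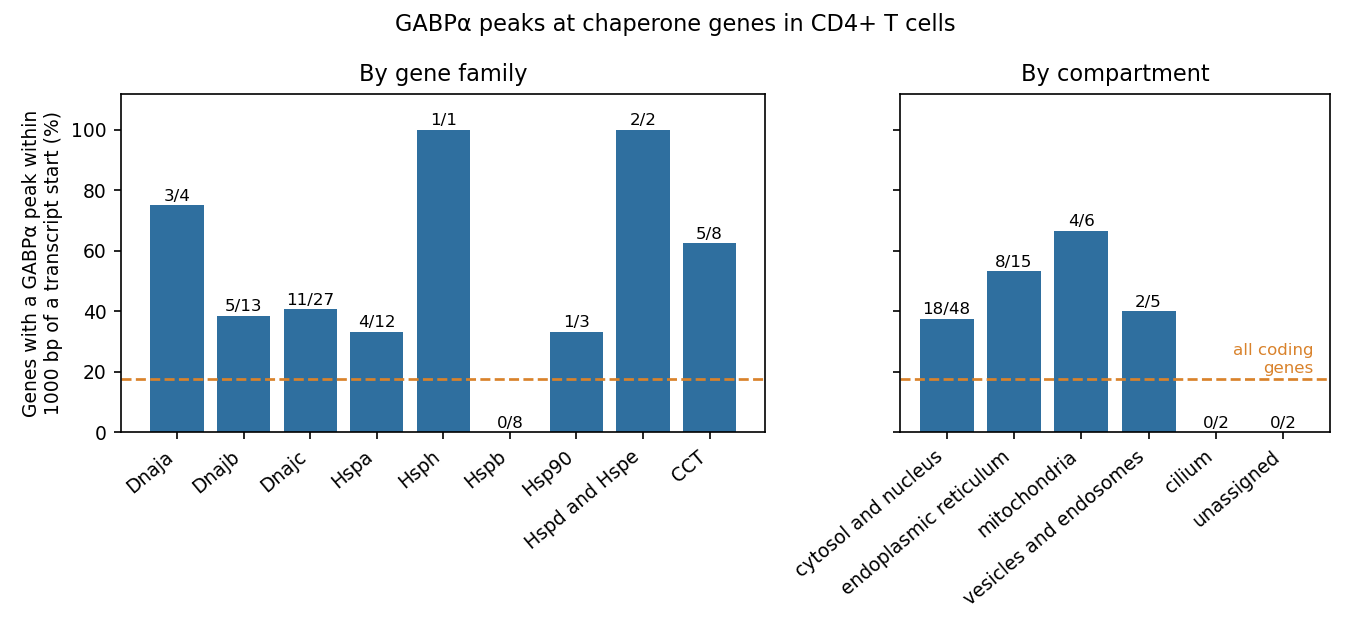
Bars give the percentage of chaperone genes with a GABPα peak within 1000 bp of a transcript start, by gene family (left) and by the compartment of the protein (right), with the counts above each bar. The dashed line is the 17.7% of all protein-coding genes, and the genes with an Hspb symbol are the only family with no peak, at 0 of 8.

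Grouped by where the protein works, the share was 4 of 6 for mitochondrial chaperones (66.7%), 8 of 15 for those of the endoplasmic reticulum (53.3%), 2 of 5 for those of vesicles and endosomes (40%) and 18 of 48 for those of the cytosol and nucleus (37.5%). The intervals overlap, from 30 to 90.3% for mitochondria and from 25.2 to 51.6% for the cytosol and nucleus. Neither of the 2 cilium genes, Dnajb13 and Hspb11, had a peak, nor did Dnajc4 and Dnajc28, which were given no compartment. The order of the compartments rested on small counts, since the shared peak of Hspd1 and Hspe1 gives 2 of the 4 mitochondrial genes.

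CCT is a ring of unlike subunits, each the product of its own gene, and all must be made for the ring to form. Peaks lay at Cct2, Cct6b, Cct7, Cct8 and Tcp1, and none within 1000 bp of Cct3, Cct4 or Cct5. The nearest peak was 8282 bp from a start of Cct4, 61784 bp from Cct5 and 103969 bp from Cct3. Cct6a, the broadly expressed form of the zeta subunit, is not protein-coding in this release (it is listed as a processed transcript) and was not counted. Its nearest peak was 61717 bp away. The CCT count of 5 of 8 therefore holds Cct6b, the other zeta form, and not Cct6a.

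Cct2, the beta subunit, had the widest peak of the family, 348 bp at chr10:117063645-117063992, from 178 bp upstream to 169 bp downstream of its start, over the 5′ UTR, a coding exon and the first intron. Its CCGGAAG, on the strand opposite to the gene, began 50 bp upstream of the start. The peak of Cct8, the theta subunit, was 210 bp wide (chr16:87495782-87495991) and held 1 CCGGAAG at 33 bp upstream. For Tcp1, the alpha subunit, the 339-bp peak (chr17:12916100-12916438) covered an internal protein-coding start 628 bp into the gene. Its CCGGAAG, on the strand opposite to the gene, spanned that start, with the first base of the motif 2 bp after the start. The mitochondrial ribosomal protein gene Mrpl18, on the opposite strand, also starts under this peak.

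Cct6b, a zeta form known from testis, and Cct7, the eta subunit, had peaks with the 6-letter form only. The Cct6b peak was 203 bp wide (chr11:82764216-82764418), with CGGAAG at 16 bp upstream, and it also covered a start of the zinc finger gene Zfp830, whose 5′ end is 24 bp away in the other direction. Within 250 bp upstream of Cct6b there was a CCGGAAG, but it lay outside the peak. Cct7 had the narrowest peak of the family, 184 bp (chr6:85451888-85452071), in the 5′ UTR at a retained-intron transcript 505 bp into the gene, with Pradc1 starting under it on the other strand. So 3 of the 5 CCT peaks lay at a start of another coding gene as well, and the list of intervals cannot say for which gene the factor was there.

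The mitochondrial pair Hspd1 and Hspe1 is transcribed in opposite directions from 1 promoter. Their peak was 163 bp wide (chr1:55088038-55088200), covered the start of Hspe1 and ended 14 bp short of the nearest start of Hspd1. It held 2 CCGGAAG and 3 CGGAAG in all, counted over both strands. The 2 CCGGAAG overlapped, 1 on each strand, in a run of letters that reads the same on both strands. They were therefore 1 site and not 2 separate ones. The motif printed above began 61 bp upstream of Hspe1 and 47 bp upstream of Hspd1. By this count, which takes such a site as 2, 2 of 32 member peaks held 2 or more CCGGAAG (6.25%, against 13.9% of promoter peaks). They were the peak of Hspd1 and Hspe1 and the peak of Dnajc1 with 3.

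Other mitochondrial chaperones were mixed. Dnajc11, a J-domain protein of the mitochondrial membranes, had a 217-bp peak over its start, with CCGGAAG at 109 bp upstream. Dnaja3 (Tid1), a J-domain partner of mitochondrial Hsp70, had its peak far from the 5′ end of the gene: 134 bp in an intron (chr16:4683750-4683883), 187 bp before a protein-coding start that is 44081 bp into the gene. This was the narrowest Dnaja peak and it held no CGGAAG. Dnajc15 and Dnajc30 had no peak, with the nearest 115633 and 104520 bp away.

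The J-domain proteins of the cytosol included several with a peak at their start. Dnaja1 and Dnaja2, the main partners of Hspa8, had peaks of 280 and 290 bp, the latter the widest of the family. The CCGGAAG of Dnaja1 lay at 2 bp before an internal start, and Dnaja2 had CGGAAG at 57 bp after its start. Dnaja4 was the family member without a peak, at 7113 bp from one.

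Among Dnajb genes, Dnajb1, the classical Hsp40, had the widest peak, 277 bp (chr8:83608001-83608277) over its start and 30 bp from a start of Tecr, an enzyme of fatty acid elongation on the other strand. Dnajb6, which keeps polyglutamine proteins from aggregating, had a 274-bp peak (chr5:29735849-29736122) at an internal start 301 bp into the gene, under which Gm5129 also starts. Its sequence was the least unique of all member peaks, with 74.1% of 36-base words occurring once in the genome. Dnajb4 had the narrowest, 142 bp, and the most distant: it ended 526 bp upstream of the gene and lay 307 bp from Fubp1, a DNA-binding regulator that starts 120 bp from Dnajb4 on the other strand. Here the neighbour was the closer gene. The family members without a peak were Dnajb2, Dnajb3, Dnajb5, Dnajb7, Dnajb8, Dnajb12, Dnajb13 and Dnajb14.

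In the endoplasmic reticulum, BiP (Hspa5), Grp94 (Hsp90b1) and the J-domain proteins Dnajb9, Dnajb11, Dnajc1, Dnajc10, Dnajc14 and Dnajc25 had peaks. Dnajc1 (ERdj1) had the widest Dnajc peak, 351 bp (chr2:18392610-18392960), with 3 CCGGAAG, 1 of them beginning 2 bp before the start and running across it. The peaks of Dnajb9 (ERdj4) and Dnajc10 (ERdj5), 249 and 237 bp wide, covered the start and held CGGAAG only. Dnajb11 (ERdj3) had a 173-bp peak that ended 81 bp upstream of its start and covered a start of Tbccd1 on the other strand. Dnajc14 and Dnajc25 had their peaks at internal starts 1492 and 8110 bp into the gene, and Dnajc25, with 151 bp, had the narrowest nearest peak of its family, 20 bp from the start of Gm20503.

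BiP and Grp94, the most abundant chaperones of this compartment, had peaks without CGGAAG. The Hspa5 peak was 228 bp wide, the narrowest of the Hspa family (chr2:34771687-34771914), and ended 56 bp upstream of the gene. The Hsp90b1 peak, 211 bp (chr10:86705910-86706120), ended 401 bp upstream and was 66 bp from Ttc41 on the other strand, so Ttc41 was the closer gene. Both held GGAA, 2 and 3 times. No peak was listed at Dnajb12, Dnajb14, Dnajc3, Dnajc16, Dnajc18, Dnajc22 or Hspa13 of the same compartment.

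Among the Hsp70 proteins of the cytosol, the constitutive Hspa8, the exchange factor Hspa4 and the ribosome-associated Hspa14 had peaks. Hspa4 had the widest of all member peaks, 444 bp (chr11:53300419-53300862), which put it at the 98.5 percentile of the list, with CCGGAAG at 306 bp upstream. Hspa8 had a 321-bp peak with CGGAAG at 81 bp upstream. Hspa14 had a 275-bp peak (chr2:3512728-3513002) under which Gm45902 also starts, 28 bp from Cdnf, a secreted factor of the endoplasmic reticulum. Hsph1, the larger relative that acts as an exchange factor, had a peak of 144 bp at a start 86 bp into the gene.

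The stress-inducible Hspa1a and Hspa1b had no peak, and neither had the testis forms Hspa1l and Hspa2, nor Hspa4l, Hspa12a and Hspa12b. Hspa1a and Hspa1b are nearly identical copies, and 29.8% of the 36-base words around their starts occurred once in the genome, a value whose part in the missing peaks was not tested. The next lowest gene, Hspb1, had 79.2% unique words, and in 68 of 78 genes all were unique. Their neighbour Hspa1l had a fully unique start and was 9052 bp from a peak. The cytosolic Hsp90 genes Hsp90aa1 (147427 bp) and Hsp90ab1 (5711 bp) had none either, which left Hsp90b1 as the family's member with a peak.

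Dnajc genes outside the endoplasmic reticulum and mitochondria covered a range of roles. Dnajc2, which works at the ribosome, had a 282-bp peak (chr5:21785108-21785389) over its own start and over that of the proteasome ATPase gene Psmc2, whose 5′ end is 32 bp away on the other strand. Dnajc5 (cysteine string protein) and Dnajc13, an endosomal protein, had peaks of 330 and 206 bp over their starts. Dnajc24, needed to make diphthamide, had 278 bp at an internal start.

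Dnajc7, which binds both Hsp70 and Hsp90, had 2 peaks. The one at an internal start was 242 bp wide (chr11:100619551-100619792), with CCGGAAG beginning 1 bp before that start and running across it. The other, 118 bp in an intron (chr11:100619081-100619198), held no CGGAAG and lay 46 bp from Nkiras2 against 378 bp from Dnajc7. Dnajc12, a partner of aromatic amino acid hydroxylases, had a 212-bp peak in its first intron (chr10:63382686-63382897), 243 bp after the start and 982 bp from Sirt1, a deacetylase. The remaining Dnajc genes had no peak: Dnajc8, Dnajc9, Dnajc17, Dnajc21 and Dnajc27 of the cytosol and nucleus, Dnajc5b, Dnajc5g and Dnajc6 of vesicles, and those named above.

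Small heat shock proteins hold unfolded clients without ATP, and several are best known from muscle. The nearest peaks of the Hspb genes ranged from 5796 bp (Hspb6) and 15806 bp (Hspb2) to 130615 bp (Hspb3). Hspb1 was at 69664 bp, Hspb7 at 23780 bp, Hspb8 at 34427 bp, Hspb9 at 24159 bp and Hspb11, of the cilium, at 74834 bp. Their CpG numbers ran from 17 (Hspb7) to 103 (Hspb11). So no member of the family had a peak even within 5000 bp, a distance at which 19.9% of all protein-coding genes had one. The interval of 0 of 8 reaches 32.4%, above that share, so the count does not set the family apart.

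**Figure D2:**
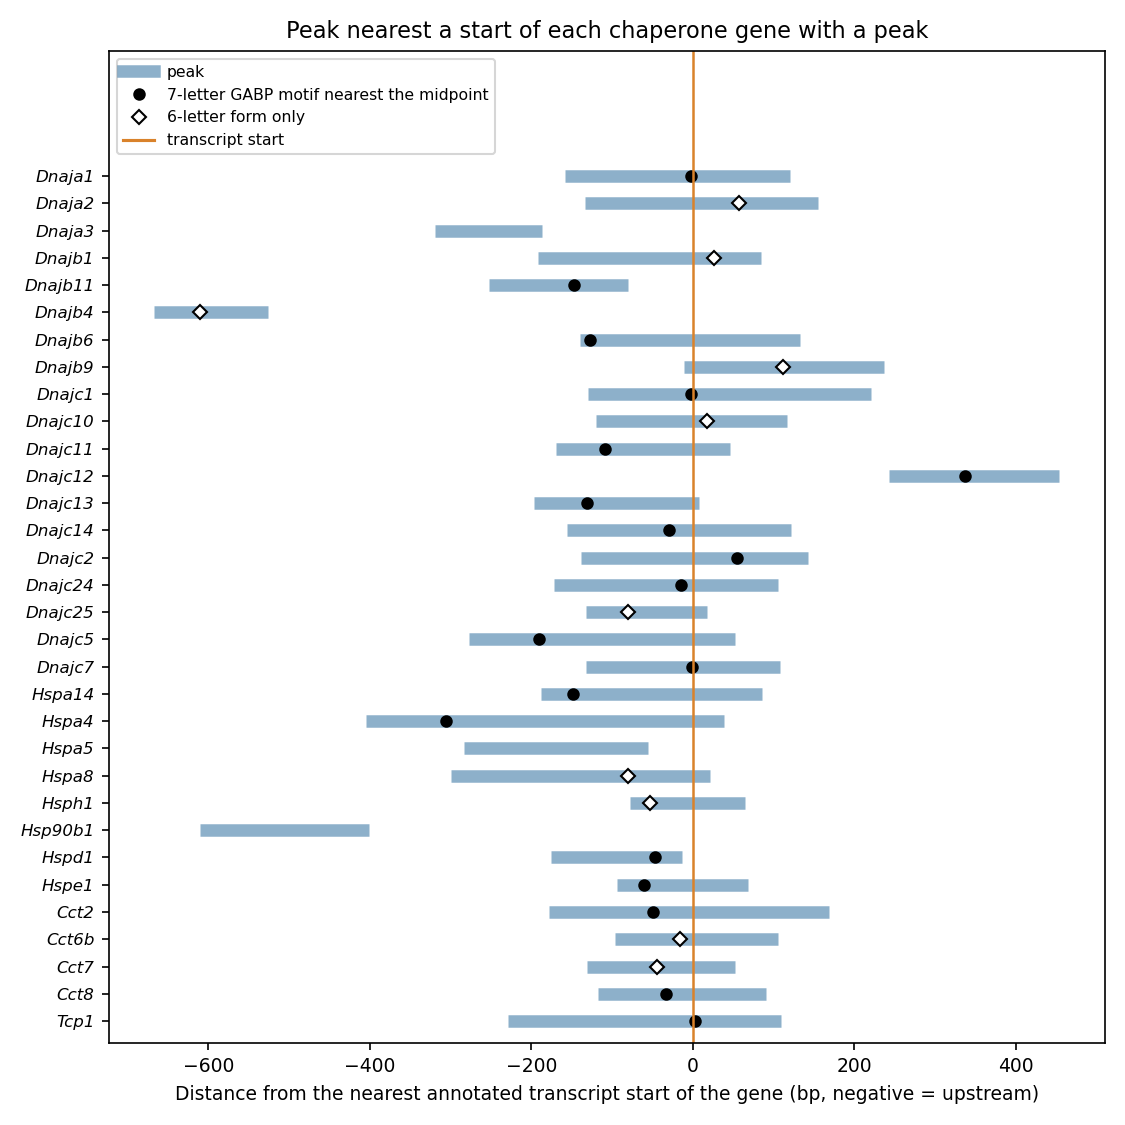
Each bar is the peak nearest a start of 1 of the 32 chaperone genes with a peak, drawn in bp from that start, with upstream to the left of the vertical line. Black dots mark CCGGAAG and open diamonds CGGAAG alone, and most bars cross the start while those of Dnajb4 and Hsp90b1 lie at least 401 bp upstream.

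Most peaks sat on the promoter. In 25 of the 32 genes with a peak it covered a transcript start (78.1%, against 78.5% of all genes with a peak), and in 16 it covered the 5′ end of the gene itself. The CCGGAAG nearest the middle of the peak began at a median of 47 bp upstream of the start in the 19 genes that had one, ranging from 306 bp upstream (Hspa4) to 337 bp downstream (Dnajc12). It was within 100 bp of the start in 11 of them. The start and the motif were both picked by their nearness to the peak, so short distances were partly built in. The same distances were not computed for all promoter peaks. The motif lay on the strand of the gene in 9 and on the other in 10.

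The 1000-bp limit made little difference. The genes nearest to it inside were Dnajb4 (526 bp), Hsp90b1 (401 bp), Dnajc12 (243 bp), Dnaja3 (187 bp) and Dnajb11 (81 bp). Nearest outside were Dnajc9 (4579 bp), Hsp90ab1 (5711 bp), Hspb6 (5796 bp), Dnaja4 (7113 bp) and Dnajb7 (8061 bp). At 5000 bp, 33 of 78 genes had a peak (42.3%, against 19.9%), the addition being Dnajc9. No chaperone gene therefore had its nearest peak between 526 and 4579 bp. The 46 genes without a peak were a median of 66083 bp from one, and 26 of them were over 50000 bp away.

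**Figure D3:**
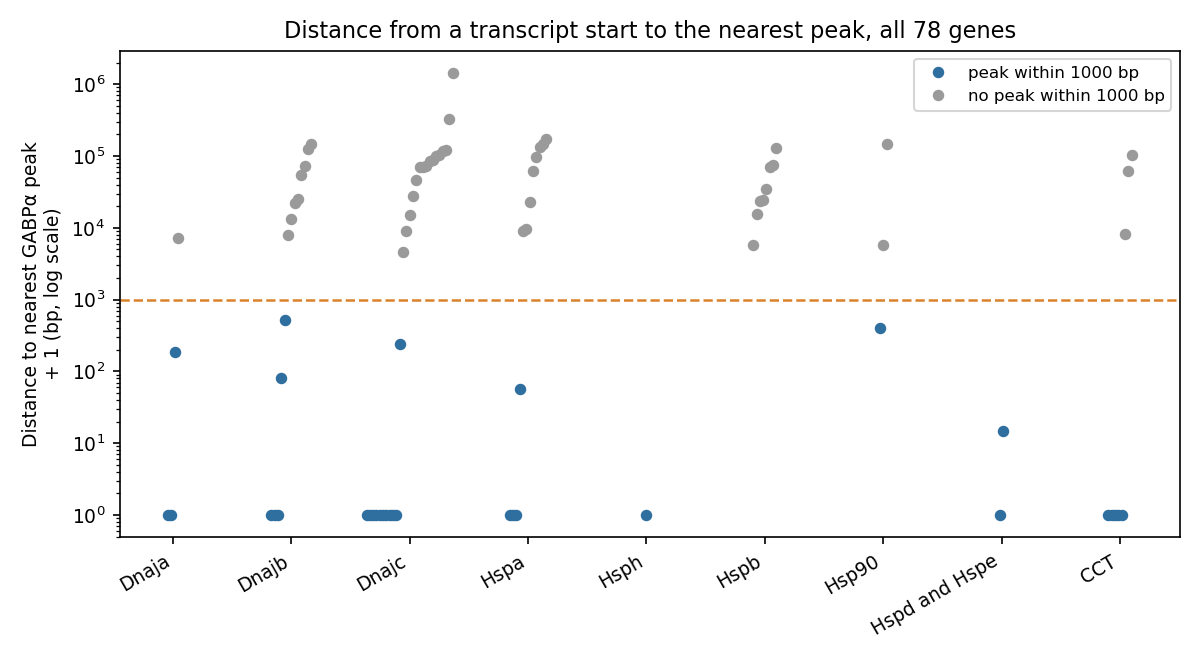
Every point is 1 of the 78 chaperone genes, placed by family and by the distance in bp (plus 1, log scale) from a transcript start to the nearest GABPα peak. Blue points have a peak within the 1000 bp of the dashed line and grey points do not, and the stretch between 526 and 4579 bp holds no gene.

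The peaks themselves were compared with the 3459 peaks within 1000 bp of any protein-coding start, which include them. Their median width was 239.5 bp (118 to 444) against 210 bp, and 27 of 32 were at or above the 157-bp median of the whole list (84.4%, against 76.1%). CCGGAAG occurred in 18 of the 32 (56.2%, 95% interval 39.3 to 71.8%) against 57.2%. CGGAAG was in 28 of 32 (87.5%) against 76.6%, and the GGAA core in 32 of 32 against 98.8%. A T followed CCGGAAG in 9 of 18 peaks (50%, against 48.2%). The share with the full motif was thus close to that of promoter peaks as a whole. The median GC content was 64.3% in both sets.

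Shared promoters were frequent. Of the 32 peaks, 15 were within 1000 bp of 2 or more coding genes (46.9%), against 716 of 3459 promoter peaks (20.7%). These shares are not alike, since member peaks were reached through genes and a peak near 2 genes is more easily reached. Counted over genes with a peak, 15 of the 32 chaperone genes had an opposite-strand coding neighbour within 1000 bp. Of all 3880 genes with a peak, 1181 did. Those 15 genes include Dnajc14, whose neighbour is Tmem198b, and not Dnajc25. The genes within 1000 bp of the same peak were Cct6b with Zfp830, Cct7 with Pradc1, Tcp1 with Mrpl18, Dnajb1 with Tecr, Dnajb4 with Fubp1, Dnajb6 with Gm5129, Dnajb11 with Tbccd1, Dnajc2 with Psmc2, Dnajc7 with Nkiras2, Dnajc12 with Sirt1, Dnajc25 with Gm20503, Hsp90b1 with Ttc41, Hspa14 with Gm45902 (on its own strand) and Cdnf, and Hspd1 with Hspe1. In 22 of the 32 genes the chaperone alone had the nearest coding start. In 6 it was tied with a neighbour whose start the peak also covered (Cct6b, Cct7, Tcp1, Dnajb6, Dnajc2 and Hspa14), and at Hspd1, Dnajb11, Dnajb4 and Hsp90b1 the neighbour was nearer.

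Genes that start close to another coding gene on the opposite strand had peaks more often, in the whole annotation as among chaperones. Of 24 chaperone genes with such a neighbour within 1000 bp, 15 had a peak (62.5%, against 49.6% of 2382 genes), and of the 54 without one 17 did (31.5%, against 13.8% of 19556). The share of chaperone genes was higher than the background in both classes. The part of these neighbours in the counts was not tested further.

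CpG content moved with the peaks as well. The median number of CpG within 500 bp of the gene start was 77 in chaperone genes with a peak, 57.5 in those without, 64 in all genes with a peak and 41 in all genes. Split into 5 equal classes of CpG number over all genes, a peak was found at 0 of 1 chaperone genes in the lowest class (1.62% of all genes), 2 of 10 in the next (20%, against 5.29%), 5 of 18 (27.8%, against 20.5%), 8 of 21 (38.1%, against 32.6%) and 17 of 28 in the highest (60.7%, against 28.4%). The gap was widest in the highest class and narrow in the middle ones. CpG was counted at the gene start, which need not be the start near the peak. The 2 genes with a peak in the second class, Dnajc14 and Dnajc25, had it 1336 and 7978 bp from the gene start. Dnaja3, in the third class, had it 43761 bp away. These classes therefore do not describe the CpG content at those peaks. All genes were counted in the same way. No expression values were analysed here, and whether a gene was active in these cells was not tested.

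**Figure D4:**
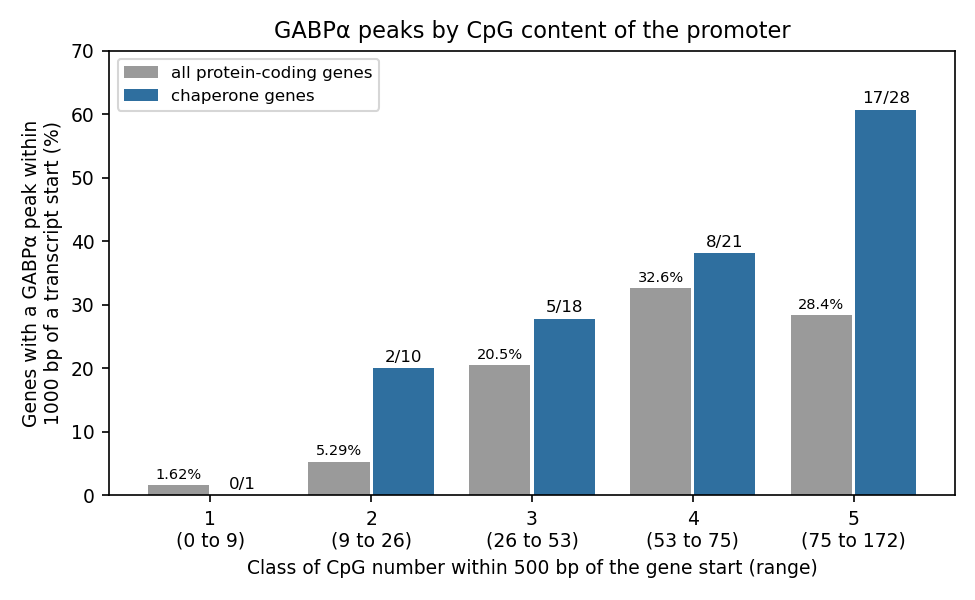
Bars give the percentage of genes with a GABPα peak within 1000 bp of a transcript start in 5 equal classes of CpG number around the gene start, grey for all protein-coding genes and blue for the chaperone genes, whose counts stand above the bars. In the highest class 17 of 28 chaperone genes had a peak, against 28.4% of all genes.

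Motifs were then sought in the promoter itself, 250 bases before to 50 after the 5′ end of each gene, on both strands and with exact letters. CCGGAAG was there in 13 of 78 chaperone promoters (16.7%), against 10.8% of all promoters. Among genes with a peak it was in 12 of the 32 chaperone genes (37.5%) and in 41.7% of all 3880, so the chaperone genes were not above other genes with a peak. It was in 1 of the 46 chaperone genes without a peak (2.17%). Of the 13 genes that held it, 12 had a peak (92.3%, against 68.5% of all genes that held it), and of the 65 that did not, 20 had one (30.8%, against 11.6%). The gene with the motif and no peak was Hspa13 (Stch), an Hsp70-like protein of the endoplasmic reticulum. Its motif lies at chr16:75767234-75767260 (minus strand), 146 bp upstream of the gene and 97547 bp from the nearest peak, after a run of A.
Hspa13: aacaaaaaaaCCGGAAGtttgaattcc

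The most frequent of the other promoter motifs was GGGCGG, a site for SP1 proteins, in 48 of 78 chaperone promoters (61.5%, against 43.0%), with 21 of 32 among those with a peak and 27 of 46 among those without. TATAAA was in 7 of 78 (8.97%, against 12.6%). The exact motif of YY1 was at Dnajb4 and Dnajc13, in 2 of 78 promoters (2.56%, against 0.77%), and that of NRF1 at Cct5 (1.28%, against 1.22%).

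Heat shock elements were of interest because their GAA repeats share letters with the GABP core. An element was searched as GAA, TTC and GAA in a row with any 2 bases (NN) between neighbours, on either strand. It was in the promoter window of 1 chaperone gene, Hspe1 (1.28%, against 0.474% of all promoters). Many annotated 5′ ends lie upstream of the start under the peak, so, after these results had been seen, the letters were also sought inside the peaks and around every transcript start.

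Inside the peaks the element was found in 4 of 32 member peaks (12.5%), those of Dnaja1, Dnajb6, Hsph1 and the Hspd1 and Hspe1 pair, against 13 of 3459 promoter peaks (0.376%). These 4 made up 30.8% of the 13. Among the 9 others was the peak of Chordc1, an Hsp90 co-chaperone, with 3 overlapping elements. The elements are printed below on the gene's strand (that of Hspe1 for the pair), in capitals, with 6 bases to either side. They lie at chr4:40722528-40722552, chr5:29735846-29735870, chr5:149636282-149636306 (minus strand) and chr1:55088053-55088082.
Dnaja1: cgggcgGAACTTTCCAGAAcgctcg
Dnajb6: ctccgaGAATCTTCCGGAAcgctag
Hsph1: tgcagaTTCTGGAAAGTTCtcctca
Hspe1: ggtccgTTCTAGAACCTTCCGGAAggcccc

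At Hspd1 and Hspe1 an 18-letter run held 2 overlapping elements. The 2 overlapping CCGGAAG of this peak, 1 on each strand of the same site, shared letters with it. The Dnajb6 element likewise shared letters with 1 CCGGAAG. The elements of Dnaja1 and Hsph1 overlapped no CGGAAG. Of the 13 promoter peaks with an element, 6 had it overlapping CGGAAG (46.2%). The element began 73 bp upstream of the Hspe1 start, 10 bp upstream of the Hsph1 start, 137 bp upstream of the Dnajb6 start and 54 bp downstream of the Dnaja1 start.

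Within 500 bp of any transcript start, 14 of 78 chaperone genes held the element (17.9%), against 952 of 21938 genes (4.34%). Of the 14, 10 had a peak (71.4%), whereas 184 of the 952 did (19.3%). With or without the element, the share with a peak was 41.0% of chaperone genes and 17.7% of all genes. The 10 were Cct8, Tcp1, Dnaja1, Dnajb6, Dnajc1, Hsp90b1, Hspa8, Hspd1, Hspe1 and Hsph1. In 5 of them the element lay inside the peak, and Hspd1 and Hspe1 count the same peak and run of letters. The 4 without a peak were Cct4 and Hsp90aa1, with the element 5 and 4 bp from a start, and Dnajb5 and Hsp90ab1, with it 324 and 356 bp away. Genes with more annotated starts had more sequence searched, which was not equalised. A match of letters is no measure of binding by a heat shock factor, and the same letters may be read by others.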

How the data were processed

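The authors sequenced 36-base single reads, removed adapters and poor bases (Trimmomatic), placed them on mm10 (Bowtie) and called peaks over the input DNA (MACS2, cutoff q 0.01). Versions and the treatment of reads with several places are not given in the sources used here. The deposited list holds chromosome, start and end of each peak. Starts were taken as 0-based and are printed 1-based.

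Here each peak was matched to the transcript starts of GENCODE M21 in Python 3.11.15 (numpy 2.4.6, scipy 1.17.1, numba 0.67.0), sequences were read with pysam 0.24.0 and samtools 1.23.1, and figures were drawn with matplotlib 3.10.9. The search for peaks, motifs and repeated words was tested on simulated data. A peak counted for every gene with a start within 1000 bp. Where it was near several starts of a gene, positions are given from the 5′ end of the gene if that was among the nearest, else from the start nearest the middle of the peak. Motifs were exact letters on both strands. Uniqueness is the share of 36-base words that occur once in the genome, on either strand, within 250 bp of the gene start or in a peak.

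Genes, families, compartments (assigned from textbook knowledge) and lists were chosen with earlier results of these data known. Named with their values were all CCT subunits, members whose peak is near another coding gene, the widest and narrowest peak of each family, peaks without CGGAAG, and the 5 genes just inside and just outside the distance. Others were named to account for every gene, and the elements in peaks and around starts after their values had been seen. With 1 ChIP library no p-value was computed. Shares carry Wilson 95% intervals and stand beside the same share over all protein-coding genes. A list of partner genes is counted in the total of 68 but is not reported here on its own.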

Additional observations from a re-analysis of the deposited data

How the results depend on the processing

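The count of chaperone genes with a peak was 30, 31 and 33 of 78 at distances of 250, 500 and 5000 bp, 25 when the peak had to cover a transcript start, 28 with peaks at or above the median width, and, in an alternative added after the data were seen, 28 when each peak was given only to its nearest gene, ties counted for each. Of 147 alternative values 136 stayed within 1.5 times the main count or, for the motif share, within its interval. Requiring that the peak cover a start left 3 Dnajb genes, 0 Hsp90 genes, 1 of Hspd1 and Hspe1, 5 genes of the endoplasmic reticulum and 2 of mitochondria. A distance of 250 bp also left 0 Hsp90 genes, and the width limit 0 for Hsph1. The motif share rose to 87.5% with CGGAAG and 100% with GGAA, which are shorter. Heat shock elements, in alternatives added after the data were seen, were found at 14 genes within 500 bp of any start and in the peaks of 5. No paired analysis was possible because there was 1 ChIP library, and for the same reason no replicate could be left out. The number of reads per peak was unknown, so genes just below the cutoff cannot be told from genes without signal.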

Other observations

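Genes that work with the chaperones were counted in the same way, from a list of 68 co-chaperones, exchange factors, folding enzymes and heat shock factors. Of the 68, 28 had a peak (41.2%), a share like that of the 78 chaperone genes and above the 17.7% of all protein-coding genes. Partners of Hsp70 had 9 of 13, with peaks at the nucleotide exchange factors Bag1, Bag4, Bag6, Hspbp1, Hyou1, Grpel1 and Grpel2, at St13 (Hip) and at the ubiquitin ligase Stub1 (CHIP). Bag2, Bag3, Bag5 and Sil1 had none. Partners of Hsp90 had 10 of 18, among them Cdc37, which brings kinases to Hsp90, the ATPase activator Ahsa1 and Chordc1, while Stip1 (Hop), Ptges3 (p23), Fkbp4 and Fkbp5 had none.

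The other lists had fewer. Peaks were found at 4 of 10 folding enzymes and factors of the endoplasmic reticulum (Pdia6, P4hb, Cdnf and Creld2, of which Cdnf shares a promoter with Hspa14), at 2 of 6 subunits of prefoldin, which hands clients to CCT (Pfdn2 and Pfdn6), at 1 of 8 phosducin-like proteins and tubulin cofactors (Tbce) and at 1 of 5 mitochondrial chaperones and proteases (Clpp). Of the 4 heat shock factors Hsf1, the main activator of the heat shock response, had a peak, and Hsf2, Hsf4 and Hsf5 had none. These counts are small and no difference between lists was tested.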
